A study of Homo sapiens with 6 samples.

Results

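The clade B serpins, encoded by the SERPINB genes, were examined in THP-1 cells, a human monocytic leukaemia line, after differentiation with PMA. The set was chosen by gene name from the family, with earlier results of these data known. It comprised 7 genes, SERPINB1, SERPINB2, SERPINB6, SERPINB7, SERPINB8, SERPINB9 and SERPINB10. Each gene was represented by its probe set with a single gene symbol, and 5 of the 7 had such a probe set among the 18417 genes measured. SERPINB2 and SERPINB6 were not named by the probe annotation used and were not analysed here. The differentiated cells were exposed to 200 nM PMA for 3 days and kept without it for a further 3 days (3 arrays), and they were set against unstimulated cells of the same line (3 arrays). Both groups were grown in the same serum-supplemented RPMI medium, and no genetic change was stated for either. All samples are of a single leukaemia line. Whether the replicates were separate cultures is not stated, so the p-values reflect an array-to-array spread that may be only technical. The number of arrays limits the precision.

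Serpins inhibit proteases by offering an exposed reactive loop as bait: the protease cuts the loop, stays covalently attached and is distorted into an inactive form. Clade B serpins lack a classical signal peptide and act mainly inside the cell, where they protect it from proteases that leak out of granules or lysosomes. In myeloid cells the best known pairing is between SERPINB1 and the neutrophil serine proteases elastase, cathepsin G and proteinase 3. PMA activates protein kinase C and makes THP-1 cells adherent and macrophage-like.

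RefSeq promoter sequences (GRCh38.p14) were found for 4 of the 5 measured genes, all except SERPINB10. Those of SERPINB1, which fell with PMA, and of SERPINB9 and SERPINB8, which did not pass the test, are printed to set a gene that passed beside family members that did not pass. Each is the 250 bases before the gene's start, 5′ to 3′ on the gene's own strand. Capitals mark matches on either strand to TGANTCA (the AP-1 motif), TATAAA (the TATA box) or GAGGAA (a core of the PU.1 motif). The SERPINB1 sequence lies at chr6:2841864-2842113 on the minus strand, the SERPINB9 sequence at chr6:2903310-2903559 on the minus strand and the SERPINB8 sequence at chr18:63969831-63970080 on the plus strand.
SERPINB1: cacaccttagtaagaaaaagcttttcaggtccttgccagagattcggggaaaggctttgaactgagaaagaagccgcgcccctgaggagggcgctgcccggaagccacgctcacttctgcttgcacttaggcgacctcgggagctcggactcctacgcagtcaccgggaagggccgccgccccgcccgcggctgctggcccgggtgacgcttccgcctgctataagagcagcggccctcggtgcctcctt
SERPINB9: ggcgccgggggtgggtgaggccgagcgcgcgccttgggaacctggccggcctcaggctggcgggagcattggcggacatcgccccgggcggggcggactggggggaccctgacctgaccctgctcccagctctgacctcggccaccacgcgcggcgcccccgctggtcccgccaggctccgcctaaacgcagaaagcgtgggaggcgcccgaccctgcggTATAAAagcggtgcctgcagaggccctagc
SERPINB8: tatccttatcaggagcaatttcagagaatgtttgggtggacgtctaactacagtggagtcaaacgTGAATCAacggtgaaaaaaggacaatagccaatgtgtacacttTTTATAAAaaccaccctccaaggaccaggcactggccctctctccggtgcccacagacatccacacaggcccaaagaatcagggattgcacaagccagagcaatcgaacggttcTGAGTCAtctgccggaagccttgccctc
SERPINB1 held no exact match to the 3 motifs in this window. Near matches were not counted, such as the tataag close to the start in the SERPINB1 sequence. SERPINB9 had a single TATA box match, at positions −30 to −25 relative to the start. SERPINB8 had 2 TGANTCA matches, TGAATCA at −185 to −179 and TGAGTCA at −28 to −22. Its 2 overlapping TATA box matches lay on opposite strands, at −142 to −137 and −140 to −135, farther upstream than that of SERPINB9. SERPINB7 has 3 annotated starts, and 2 of their upstream windows held 2 TGANTCA matches each, a TGATTCA and a TGAGTCA. Over the 34943 RefSeq promoter windows of the same length, 6.59% held a TGANTCA match, 10.8% a TATA box match and 23.6% a PU.1 core. The GC content was 63.6% for SERPINB1, 74.4% for SERPINB9 and 49.2% for SERPINB8, against a median of 58.0% over all windows. These matches are descriptions of the letters in the window and were not tested as binding sites.

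Values are log2 expression, 1 per probe set and array. Array medians lay between 6.10 and 6.25 and lower quartiles between 4.46 and 4.57. Below the lower quartile, signal is hard to tell from background. Of 8 macrophage markers, 7 were higher with PMA and none lower. Beside this and the marker counts that follow, 13.2% of all genes were higher and 13.2% lower. Of 3 myeloid markers measured, 2 were lower, as SERPINB10 and SERPINB1 were. LYZ, encoding lysozyme, changed by −2.76 on the log2 scale (limma adjusted p = 8.72e-06) and MPO, encoding myeloperoxidase, by −1.10 (adjusted p = 0.00340). The remaining marker, SPI1, moved the other way by 0.20 ± 0.10 (SE) and did not pass (adjusted p = 0.202). Its groups overlapped, so the myeloid list did not fall as a whole. The 3 myeloid markers had summed log2 values of 24.4 to 25.1 on PMA arrays and 28.0 to 28.7 on unstimulated arrays. Of the 3 T cell, 2 NK cell, 3 epithelial and 1 erythroid markers measured, none passed the threshold. Of 2 B cell markers measured, 1 was lower with PMA, with summed log2 values of 9.4 to 9.8 on PMA arrays and 9.5 to 10.2 on unstimulated arrays. Of 2 fibroblast markers, 1 was higher, with sums of 12.8 to 13.3 on PMA arrays and 12.4 to 12.7 on unstimulated arrays. The part of these 3 lists in the results below was not tested. The PMA replicate 3 array and the unstimulated replicate 1 array stood farthest from their group means over all genes (root mean square deviation 0.223 and 0.199, against 0.133 to 0.170 for the other arrays), so results were also computed without both.

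Among the SERPINB genes, SERPINB1 and SERPINB10 fell with PMA, and SERPINB7, SERPINB8 and SERPINB9 did not pass the test. In limma across all 18417 genes, with Benjamini-Hochberg adjustment and a threshold of 0.05, 2 of the 5 measured members were lower and none higher. Over all genes, 26.4% passed, 13.2% lower and 13.2% higher. The members' share of 40.0% rests on 5 genes and is not read as a property of the family. The groups did not overlap for the same 2 genes, whereas 41.2% of all genes did not overlap between groups and 22.0% did not overlap and were lower with PMA. The median log2 fold change of the 5 was −0.11, and of all genes −0.03. Fold changes are PMA minus unstimulated throughout.

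SERPINB10 encodes bomapin, a serpin described in haematopoietic cells and found in the nucleus. It was at 4.66, 4.11 and 4.19 (log2 expression) on the 3 PMA arrays, against 9.04, 9.39 and 9.45 on the 3 unstimulated arrays. Every PMA array lay at least 4.39 below every unstimulated array. The means were 4.32 ± 0.29 with PMA and 9.30 ± 0.22 without it (SD, n = 3 each). The log2 fold change was −4.98 ± 0.17 (SE), a 31.5-fold lower level, with a 95% interval from −5.38 to −4.58 and a limma adjusted p of 2.49e-06. SERPINB10 ranked 10 of 18417 genes counted from the most negative fold change, and 0.0977% of all genes both passed the threshold and were at least 16-fold lower. On 2 of the 3 PMA arrays SERPINB10 gave less signal than the lower quartile of any array, which makes the size of the fall uncertain. Fewer cells expressing a gene and less RNA per cell cannot be told apart in such bulk samples.

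SERPINB1 encodes the inhibitor of neutrophil elastase, cathepsin G and proteinase 3. Its log2 values were 7.96, 7.85 and 8.02 on PMA arrays, against 8.62, 9.12 and 9.26 on unstimulated arrays. The groups were separated by 0.60, and the unstimulated replicate 1 array was the closest to the PMA arrays. The means were 7.94 ± 0.09 with PMA and 9.00 ± 0.33 without it (SD, n = 3 each). The log2 fold change was −1.06 ± 0.16 (SE), a 2.08-fold lower level, with a 95% interval from −1.44 to −0.68 and a limma adjusted p of 0.00261. In all, 3.20% of genes passed the threshold with a fall of at least 2-fold. Unlike SERPINB10, SERPINB1 remained well above the arrays' lower quartiles after PMA. The calls for both genes held under each of the 17 alternatives tried, with log2 fold changes from −1.29 to −0.93 for SERPINB1 and from −5.15 to −4.87 for SERPINB10.

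**Figure D1:**
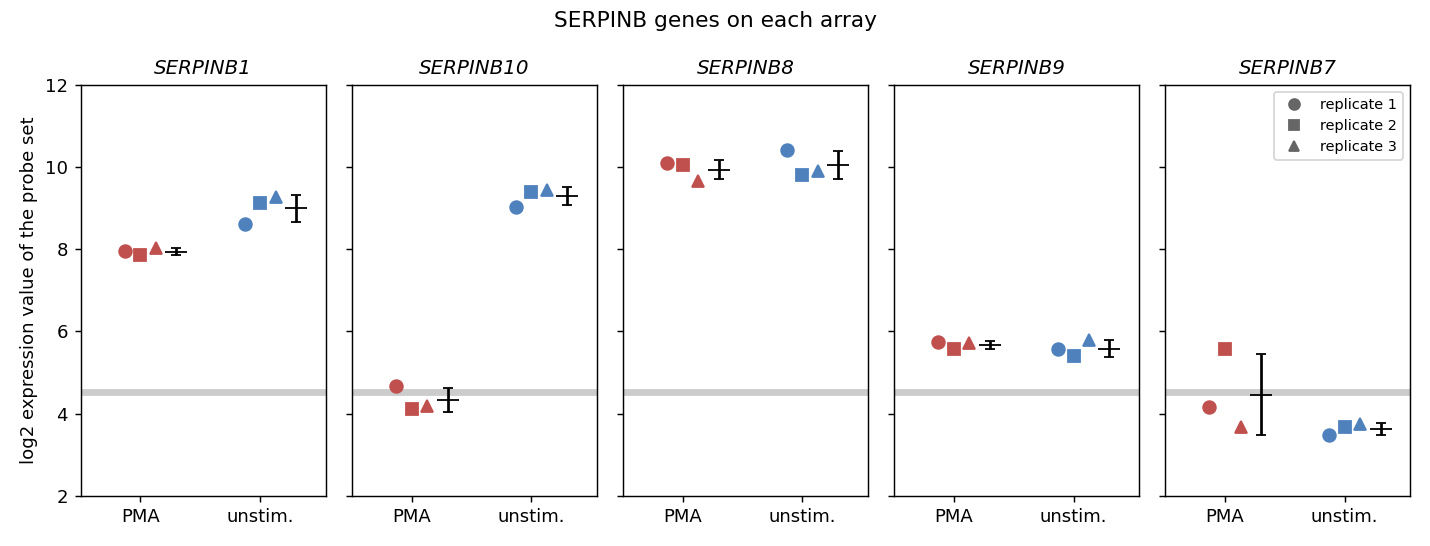
Log2 expression (vertical axis) of the 5 measured SERPINB genes on each PMA and unstimulated array, with 1 symbol per replicate. Black marks are the mean ± SD of 3 arrays, and the grey band is the range of the arrays' lower quartiles (4.46 to 4.57). SERPINB10 lay at 4.11 to 4.66 on PMA arrays and at 9.04 to 9.45 on unstimulated arrays, and SERPINB7 lay above the band on the PMA replicate 2 array only.

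SERPINB8, which inhibits the proprotein convertase furin in vitro, was at 10.09, 10.06 and 9.66 on PMA arrays and at 10.42, 9.81 and 9.91 on unstimulated arrays. The groups overlapped, and the lowest and highest values came from PMA replicate 3 and unstimulated replicate 1, the arrays that stood apart. The log2 fold change was −0.11 ± 0.19 (SE, n = 3 each, limma adjusted p = 0.745), with a 95% interval from −0.54 to 0.33. Its sign turned when either of these arrays was left out, to 0.03 without PMA replicate 3 and 0.08 without unstimulated replicate 1, and it was 0.22 without both (adjusted p = 0.162).

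SERPINB9 is the inhibitor of granzyme B and protects cytotoxic lymphocytes and antigen-presenting cells from that protease. It was at 5.73, 5.56 and 5.72 on PMA arrays and at 5.57, 5.39 and 5.79 on unstimulated arrays, so that the PMA values lay inside the unstimulated range. These values lay above every array's lower quartile but below every array's median (6.10 to 6.25). How much of this signal is background was not tested. The log2 fold change was 0.09 ± 0.12 (SE, n = 3 each, limma adjusted p = 0.680), with a 95% interval from −0.20 to 0.37, an interval that does not reach the change of SERPINB1. It was −0.01 without unstimulated replicate 2. The neighbouring pseudogene SERPINB9P1, whose probe set could share signal with that of SERPINB9, did not pass either (log2 fold change −0.10 ± 0.15, adjusted p = 0.691).

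SERPINB7 encodes megsin, first described in mesangial cells of the kidney. Its values were 4.16, 5.57 and 3.66 on PMA arrays and 3.47, 3.66 and 3.74 on unstimulated arrays. All values except that of PMA replicate 2 lay below every array's lower quartile. The standard deviation among PMA arrays, 0.99, exceeded that of 99.4% of genes. The log2 fold change of 0.84 ± 0.42 (SE, n = 3 each) did not pass in limma (adjusted p = 0.200), and its 95% interval ran from −0.14 to 1.82. The value rested on single arrays: it was 0.29 without PMA replicate 2 (adjusted p = 0.315), whereas without PMA replicate 3 it was 1.24 and passed (0.0322). Without both arrays that stood apart it was 1.17 (0.0195).

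The other 6 SERPINB genes, all from the chromosome 18 cluster, were mostly at background. SERPINB3 and SERPINB4 (squamous cell carcinoma antigens), SERPINB5 (maspin, which does not inhibit proteases), SERPINB11 and SERPINB12 lay below every array's lower quartile on all 6 arrays. None of these 5 passed in limma. The closely similar sequences of SERPINB3 and SERPINB4 leave it uncertain which of them a probe set reads. SERPINB13, a keratinocyte serpin that inhibits lysosomal cysteine proteases, was at 4.31, 4.03 and 4.12 on PMA arrays and at 4.48, 4.74 and 4.75 on unstimulated arrays. It passed with a small fall of 0.50 ± 0.12 on the log2 scale (adjusted p = 0.0168, n = 3 each), near background. Leaving out PMA replicate 2 (adjusted p = 0.0618), unstimulated replicate 2 (0.0657) or unstimulated replicate 3 (0.0667) ended that call, as did gene-wise variance (0.0717). SERPINB12 overlapped between groups (adjusted p = 0.384) but passed without unstimulated replicate 1 (0.0161).

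**Figure D2:**
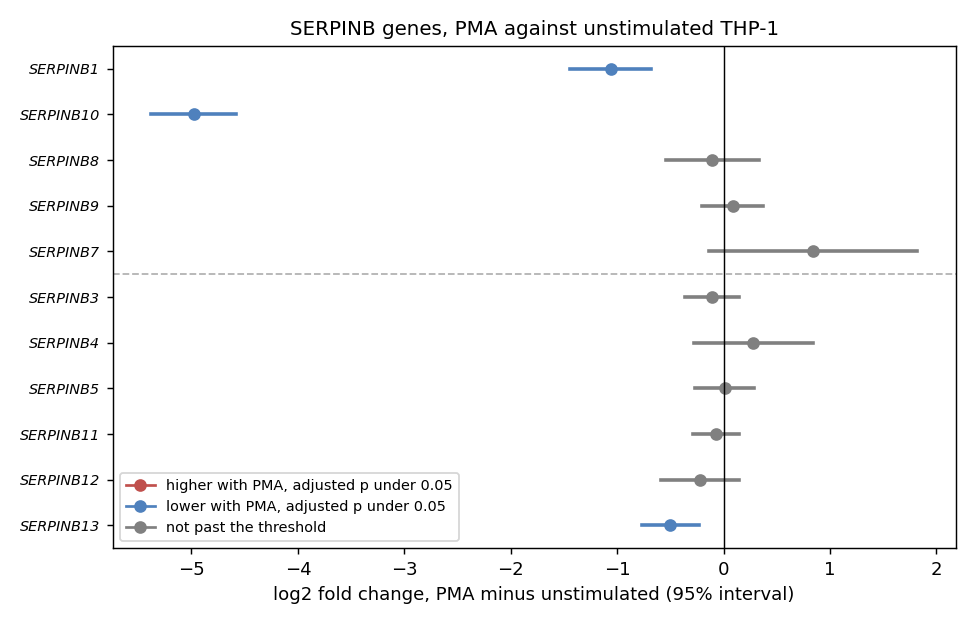
Log2 fold change (horizontal axis, PMA minus unstimulated) of the 11 measured SERPINB genes, with 95% intervals from limma. The 5 genes of the set are above the dashed line and the other 6 below it. SERPINB10 (−4.98), SERPINB1 (−1.06) and SERPINB13 (−0.50) passed the threshold, all lower with PMA.

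The proteases that clade B serpins are known to inhibit or restrain moved in both directions. Of 17 on the list, 5 rose and 5 fell, against 13.2% of all genes in each direction, and the median log2 fold change was −0.01, against −0.03 for all genes. The neutrophil serine proteases, the targets of SERPINB1, were at the falling end. Cathepsin G (CTSG) was at 5.41, 5.59 and 5.79 with PMA, against 12.38, 12.16 and 12.20 without it, a log2 fold change of −6.65 ± 0.12 (adjusted p = 5.48e-07). Neutrophil elastase (ELANE) was at 7.32, 7.38 and 7.62 with PMA, against 12.44, 12.27 and 12.15 without it (−4.85 ± 0.12, adjusted p = 7.29e-07). Proteinase 3 (PRTN3) was at 7.34, 7.14 and 7.05 with PMA, against 12.23, 11.39 and 11.58 without it (−4.56 ± 0.21, adjusted p = 8.72e-06). The groups were separated by at least 4.05 for each of these 3 proteases, against a separation of 0.60 for SERPINB1 itself.

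At the rising end were lysosomal cysteine proteases that SERPINB3 and SERPINB13 inhibit. CTSL rose by 2.67 ± 0.12 on the log2 scale (adjusted p = 7.73e-06), with 12.06, 12.01 and 11.92 on PMA arrays against 9.16, 9.28 and 9.54 on unstimulated arrays. CTSS (0.90 ± 0.17, adjusted p = 0.00557) and CTSK (1.03 ± 0.30, adjusted p = 0.0365) also rose. CTSK did not pass when PMA replicate 1, PMA replicate 2, unstimulated replicate 1 or unstimulated replicate 2 was left out (adjusted p 0.0529 to 0.119), and with gene-wise variance neither CTSK (0.174) nor CTSS (0.0619) passed. The furin gene FURIN, target of SERPINB8, rose by 0.72 ± 0.11 (adjusted p = 0.00236), with 8.72, 8.60 and 8.38 on PMA arrays and 7.82, 7.90 and 7.81 on unstimulated arrays, while SERPINB8 itself did not pass. GZMB, target of SERPINB9, did not pass (−0.05 ± 0.09, adjusted p = 0.734).

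The inflammatory caspases, which SERPINB1 has been reported to hold as inactive monomers, moved by small amounts or did not pass. CASP1 was at 8.02, 7.99 and 7.93 with PMA and at 8.32, 8.35 and 8.37 without it, a fall of 0.37 ± 0.08 on the log2 scale (adjusted p = 0.0137). That call was lost without unstimulated replicate 3 (0.0518) and with arrays centred on their medians (0.0527). CASP4 (0.29 ± 0.10, adjusted p = 0.0655) and CASP5 (0.49 ± 0.29, adjusted p = 0.266) did not pass. GZMH, a granzyme that SERPINB1 inhibits, passed with −0.35 ± 0.10 (adjusted p = 0.0358), a call lost in 13 of 17 alternatives, among them the omission of any array except unstimulated replicate 3.

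**Figure D3:**
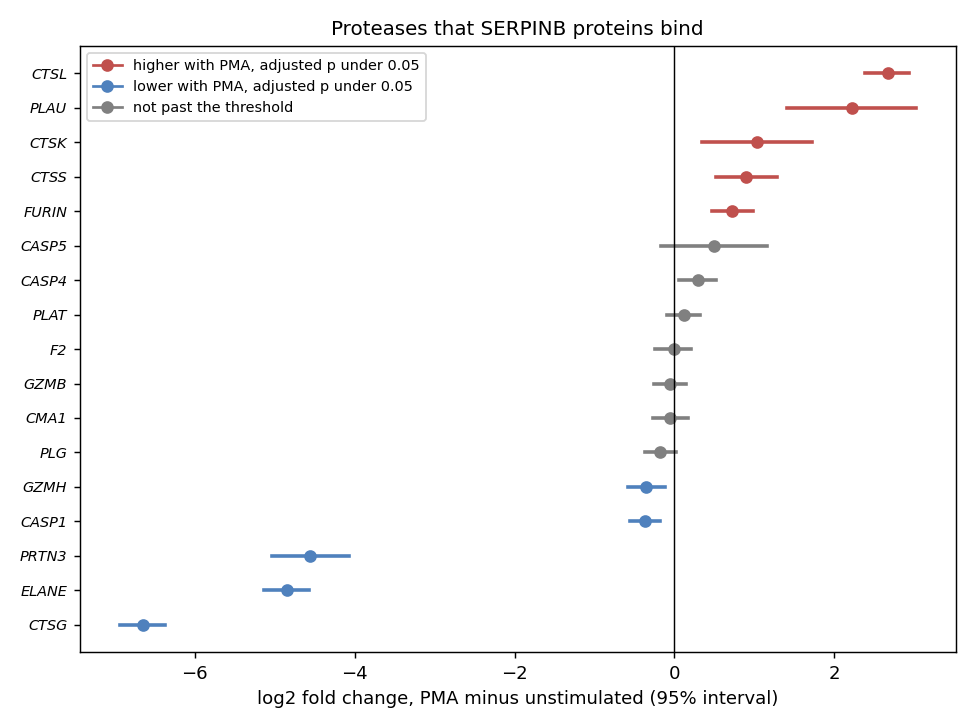
Log2 fold change (horizontal axis, PMA minus unstimulated, 95% intervals from limma) of 17 proteases that SERPINB proteins inhibit or restrain, in order of fold change. CTSL (2.67) and PLAU (2.22) lay at the upper end and PRTN3 (−4.56), ELANE (−4.85) and CTSG (−6.65) at the lower end.

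Plasminogen activation genes, the setting in which SERPINB2 acts as an inhibitor of urokinase, were mostly higher. Of 9 measured, 7 rose and 1 fell, beside 13.2% of all genes in each direction, with a median log2 fold change of 1.35 against −0.03 for all genes. Urokinase (PLAU) was at 10.44, 10.58 and 9.15 with PMA, against 7.62, 7.91 and 7.99 without it (2.22 ± 0.35, adjusted p = 0.00271). Its receptor PLAUR rose by 2.50 ± 0.21 (adjusted p = 0.000149), and LRP1, the receptor that clears urokinase bound to its inhibitors, by 2.42 ± 0.21 (adjusted p = 0.000172). The plasminogen receptors PLGRKT (1.35 ± 0.17), ANXA2 (1.60 ± 0.12) and S100A10 (1.02 ± 0.25) rose as well, with adjusted p between 9.18e-05 and 0.0181. S100A10 no longer passed when PMA replicate 1 (0.0625) or PMA replicate 2 (0.0557) was left out, and with gene-wise variance neither it (0.122) nor PLAU (0.0550) passed. The glycolytic enzyme ENO1, which also binds plasminogen at the cell surface, fell by 0.46 ± 0.09 (adjusted p = 0.00601). The tissue activator gene PLAT did not pass (0.12 ± 0.09, adjusted p = 0.399).

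Serpins of other clades also went both ways. Of 21 measured, 3 rose, 2 fell and 16 did not pass, a share called of 23.8% beside 26.4% of all genes, with a median of −0.06. SERPINI2 was at 3.90, 3.79 and 3.44 with PMA, against 6.61, 6.90 and 6.99 without it (−3.12 ± 0.15, adjusted p = 1.06e-05). All 3 PMA values lay below every array's lower quartile, which makes the size of this fall uncertain. SERPINF1, which encodes the secreted factor PEDF, was at 7.66, 7.67 and 8.90 with PMA, against 10.19, 10.33 and 10.38 without it (−2.22 ± 0.31, adjusted p = 0.00160). SERPINE2, encoding the secreted inhibitor protease nexin-1, rose by 1.00 ± 0.21 (adjusted p = 0.00983), and SERPINA1, encoding alpha-1-antitrypsin, the secreted inhibitor of neutrophil elastase, by 0.89 ± 0.17 (adjusted p = 0.00650). SERPIND1, encoding heparin cofactor II, passed with 0.50 ± 0.15 (adjusted p = 0.0414), a call lost without PMA replicate 1, PMA replicate 2, unstimulated replicate 1 or unstimulated replicate 3 (adjusted p 0.101 to 0.141). With gene-wise variance none of these 3 rises passed (adjusted p 0.0672 to 0.145).

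Human SERPINB genes lie in 2 clusters, on chromosomes 6 and 18, and the measured members were compared with their neighbours in RefSeq order. On chromosome 6, SERPINB1 fell while the adjacent WRNIP1 (−0.06 ± 0.09, adjusted p = 0.690) and SERPINB9 did not pass. NQO2, a quinone reductase gene at the other end of that cluster, had means of 8.10 ± 0.07 with PMA and 7.13 ± 0.14 without it (SD, n = 3 each) and rose by 0.97 ± 0.10 on the log2 scale (adjusted p = 0.000425). On chromosome 18, SERPINB10 fell while its nearest measured neighbours, SERPINB7 and SERPINB8, did not pass. KDSR, a sphingolipid synthesis gene beyond the cluster, rose by 1.14 ± 0.11 (adjusted p = 0.000265), and VPS4B, between KDSR and SERPINB5, did not pass (−0.06 ± 0.12, adjusted p = 0.797). Beyond SERPINB8, the cadherin genes CDH7 and CDH19 were below every array's lower quartile on all 6 arrays.

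**Figure D4:**
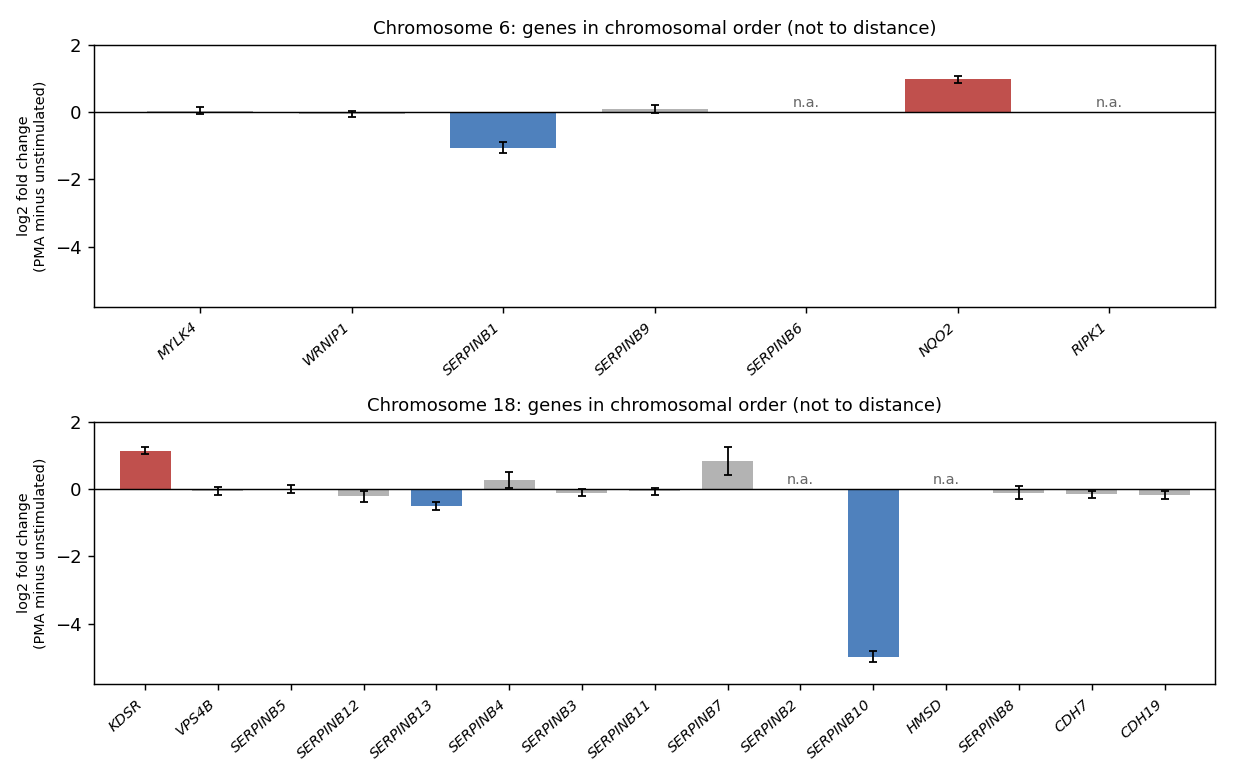
Log2 fold change (vertical axis, PMA minus unstimulated, bars with SE from limma) of SERPINB genes and the next 2 protein-coding genes on each side, in chromosomal order. Red and blue bars passed the threshold as higher and lower, grey bars did not, and n.a. marks genes with no named probe set here. SERPINB10 (−4.98) and SERPINB1 (−1.06) passed as lower, and the nearest measured family members of each did not pass.

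The 3 genes whose pattern over the 6 arrays was most like that of SERPINB10 were ELANE, AZU1 and CCR2. Likeness was the root mean square difference of log2 values after each gene was centred on its own mean, and it was 0.32 for ELANE, 0.36 for AZU1 and 0.36 for CCR2. AZU1, encoding the granule protein azurocidin, was at 6.66, 6.90 and 6.92 with PMA, against 11.91, 11.60 and 11.53 without it. CCR2, a monocyte chemokine receptor, was at 4.70, 3.83 and 4.29 with PMA, against 9.94, 9.53 and 9.78 without it. SERPINB10 and CCR2 each had 2 PMA values below every array's lower quartile, where differences are uncertain, so these distances and their order are too. The 6 arrays form 2 groups, so this likeness is mainly a like difference between them and is given as a description.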

How the data were processed

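The deposited table holds log2 values for 33297 probe sets on 6 single-channel Affymetrix arrays, made by the authors with RMA and Partek per the submitters' processing notes, of which no version is given in the sources used here. Summarising by RMA reduces differences among dim probe sets. Gene symbols came from the platform annotation, updated by gene ID for 19429 of 19460 with a single symbol. The 1754 with several symbols and the 12083 not named there were left out, and the brightest by mean over 6 arrays stood for each of 18417 genes. Every SERPINB gene measured had 1 such probe set.

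The comparison used limma 3.58.1 (R 4.3.3), with lmFit and default eBayes on a model of group alone and 7.71 degrees of freedom. P-values were adjusted by Benjamini-Hochberg over the 18417 genes and called under 0.05. The members and lists were chosen with earlier results of these data known. Named genes were all SERPINB genes, list members past the threshold and some that did not pass, chromosomal neighbours and the 3 genes most like SERPINB10. No member passed the threshold as higher, so likeness was computed for the largest fall only. Deviations of same-numbered arrays from their group means had correlations of 0.177, −0.022 and 0.046. Differently numbered arrays were not compared, so these values cannot settle whether the replicates were paired. No pairing is stated, and the replicate number was a block only as an alternative. The fit was tested on simulated data with 200 changed genes per run, fewer than passed here, so its shares may differ from those in the real data. It called 39.3% of 1.5-fold, 78.1% of 2-fold and 95.7% of 4-fold changes, and 0.0428% of unchanged genes. A gene that did not pass may therefore still have changed. Figures were drawn with matplotlib 3.10.9.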

Additional observations from a re-analysis of the deposited data

How the results depend on the processing

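The falls of SERPINB1 and SERPINB10 kept their direction and their call under all 17 alternatives, with adjusted p between 9.25e-06 and 0.0440 for SERPINB1 and between 5.12e-09 and 0.00491 for SERPINB10. Of the 5 measured members, 2 were lower under every alternative and none was higher, except that 1 (SERPINB7) was higher without PMA replicate 3 and without both arrays that stood apart, an alternative chosen after seeing the data. Its log2 fold change ran from 0.29 to 1.24 as arrays were left out in turn and was 1.17 without both. SERPINB7 is among the dimmest 25% of genes and has no value under that filter. SERPINB8 ran from −0.23 to 0.08 as arrays were left out and was 0.22 without both, and SERPINB9 ran from −0.01 to 0.19. Without both arrays, 6 of the 21 other serpins were higher, against 3 in the main fit. Over all 18417 genes, 3212 were then higher, against 2431.

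The replicate block changed the call of no SERPINB gene (adjusted p 0.00413 for SERPINB1 and 6.65e-05 for SERPINB10) and gave 2409 genes higher and 2317 lower. Over all genes, the 2431 higher and 2423 lower became 2658 and 3854 with every probe set tested, 1385 and 1458 with gene-wise variance and 1509 and 1315 at an adjusted p of 0.01. As arrays were left out in turn, 1726 to 2593 were higher and 1597 to 2449 lower, with the fewest in both directions without PMA replicate 1. With arrays centred on medians, 61.8% of called genes were higher, against 50.1%. There 3 of the 17 target proteases were lower, beside 1802 of all 18417 genes. At an adjusted p of 0.01, 3 of the 17 were lower, beside 1315 of all genes. With gene-wise variance 2 of the 17 and 0 of the 21 other serpins were higher, beside 1385 of all genes.

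Sign changes near 0, none past the threshold, occurred for SERPINB11 (0.01 with arrays centred on medians), SERPINB5 (−0.07 to 0.10 as arrays were left out), VPS4B (0.03 centred on medians, 0.00 by cyclic loess, −0.15 to 0.04 as arrays were left out), WRNIP1 (0.02 and 0.01 by these rescalings) and MYLK4 (−0.02 to 0.09 as arrays were left out). The cause of these changes was not tested.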
